A study of Danio rerio with 10 samples.

Results

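Splicing factors and heterogeneous nuclear ribonucleoproteins (hnRNPs) were followed in heart RNA from zebrafish kept in hypoxia or in normoxia. Members were the array's probe sets whose single gene symbol begins with sf3a, sf3b, snrp, srsf, prpf, hnrnp, hnrp, lsm and a digit, or u2af. The rule took 101 of 10795 probe sets with 1 symbol, standing for 77 of 8793 genes. Total RNA was the starting material, the label was biotin, and 10 Affymetrix Zebrafish arrays were hybridized, 5 for hypoxia and 5 for normoxia. By the labels, 4 arrays of each group are biological samples and the fifth repeats sample 2. The description of hypoxia 5 also gives the number 4, and its values were closest to those of hypoxia 2. The sources used here give no strain, age, oxygen level or length of exposure. The arrays measure transcripts of the splicing factors, not splicing itself.

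Splicing removes introns from pre-mRNA in the spliceosome, which is built from small nuclear ribonucleoproteins (snRNPs), particles of a small RNA and a ring of Sm or LSm proteins. The U1 particle marks the start of an intron, and U2AF and the SF3 complexes of the U2 particle mark its end and branch point. Some of the PRPF factors then join with the U4, U5 and U6 particles. SR proteins bind exons and mostly favour their use, and hnRNPs bind nascent RNA and often oppose it. Gene roles given here are those known from human and yeast homologues.

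Median array intensity was 36.2 to 51.6 before quantile normalization. The number of arrays limits the precision. Besides the technical repeats, hypoxia 1 and hypoxia 4 differed by no more than the less alike pair of technical repeats did (SD of log2 differences 0.112 against 0.151), and so did normoxia 3 and normoxia 4 (0.0927). Each such pair was averaged and counted as 1 sample, which left hypoxia 1/4, hypoxia 2 and hypoxia 3, and normoxia 1, normoxia 2 and normoxia 3/4. The labels do not say whether samples came from separate fish, so p-values measure the spread between these samples. Normoxia 1 was unlike its own group. It differed from the other normoxia arrays by an SD of 0.498 to 0.635. Pairs of a hypoxia array and a normoxia array other than normoxia 1 differed by 0.455 to 0.554. All 7 tested cardiomyocyte markers were above background on all 10 arrays and lay below 0, from -0.89 for myh7 and -0.56 for ttn.2, both called lower in hypoxia, to -0.02 for myl7. The gene myl7 encodes a myosin light chain of the heart. It had a mean log2 intensity of 12.82 ± 0.04 in hypoxia and 12.84 ± 0.02 in normoxia (SD, n = 3 each). Quantile normalization sets a value by its rank on the array, and myl7 had the same 7301.08 on arrays of both groups. The small SD of myl7 is in part set by that scaling.

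Most splicing factor transcripts differed little between hypoxic and normoxic hearts. The gene sf3b6, which encodes the SF3B subunit that contacts the branch point, rose 1.39-fold in hypoxia and was the 1 of 94 tested members past the threshold, against 3.97% of the 10851 probe sets tested (0.958% higher in hypoxia). That call was lost when any 1 of the 6 counted samples was left out. It was also lost without scaling, with median scaling, with no intensity trend and in run 1 alone. Of all 10851 probe sets, 1 to 204 were called with a sample left out, and 2 with no intensity trend. Run 1 alone gave 0 calls, no scaling gave 102 and median scaling gave 789. Genes for the Sm and snRNP proteins lay above 0 together, by a median of 0.27 on the log2 scale, and 0 of 10 passed in limma (3 at unadjusted p under 0.05). That median was 0.15 without hypoxia 3 and 0.03 in run 3, 7 of the 10 lay above 0 with median scaling and 8 without scaling, and hypoxia 2 was as low as the normoxia samples. The 3 U2AF probe sets, of 2 genes, lay below 0. The count above 0 was 1 under cyclic loess, in each run alone and without normoxia 2. The SR proteins and the hnRNPs had medians of 0.06 and 0.05, which were -0.17 and -0.13 under median scaling. The median of all probe sets tested was -0.05, and it was -0.14 under median scaling. A probe set was called at a Benjamini-Hochberg adjusted p under 0.05 in limma over all probe sets tested, and each difference given is the log2 level in hypoxia minus that in normoxia.

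The 94 tested members had a median difference of 0.08, with 61 above 0 and 33 below, against a median of -0.05 and 43.1% above 0 over all probe sets tested. Their median absolute difference was 0.13, against 0.22 over all probe sets tested. For members whose mean log2 intensity was 8 or more it was 0.11, against 0.18 for all probe sets of that brightness. Unadjusted p under 0.05 was reached by 12 members (12.8%), against 21.2% of all probe sets tested. For 86 of the 94 (91.5%) the unadjusted 95% interval of the difference lay within 1 log2, a 2-fold change, either side of 0, against 76.4% of all probe sets tested. No member's fitted difference reached 1 log2, and the most positive and most negative, 0.91 and -0.65, were those of dim probe sets of prpf8 and srsf6a.

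Groups did not overlap for 23 members, 15 with all hypoxia samples above all normoxia samples and 8 with all below. Over all probe sets tested the groups did not overlap for 27.2%, with 9.94% above and 17.3% below, so the members' total is near the background. These signs depend on scaling. The members' median was -0.03 without scaling and -0.10 with median scaling, where the median of all probe sets tested was -0.07 and -0.14. It was 0.13 under cyclic loess, where the median of all probe sets was 0.02. Over all probe sets tested, 104 were called higher and 327 lower in hypoxia. Without scaling these were 42 and 60, with median scaling 75 and 714, and with cyclic loess 139 and 230. By hybridization run the members' median was 0.03 in run 1, 0.18 in run 2 and -0.03 in run 3. The normoxia arrays of run 2 were normoxia 3 and normoxia 4, counted here as 1 sample. Hypoxia 1/4 had an array in run 1 and in run 2, so these runs are not separate replicates. Run 3 held 1 array per group, each a repeat of RNA also hybridized in run 1.

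**Figure D1:**
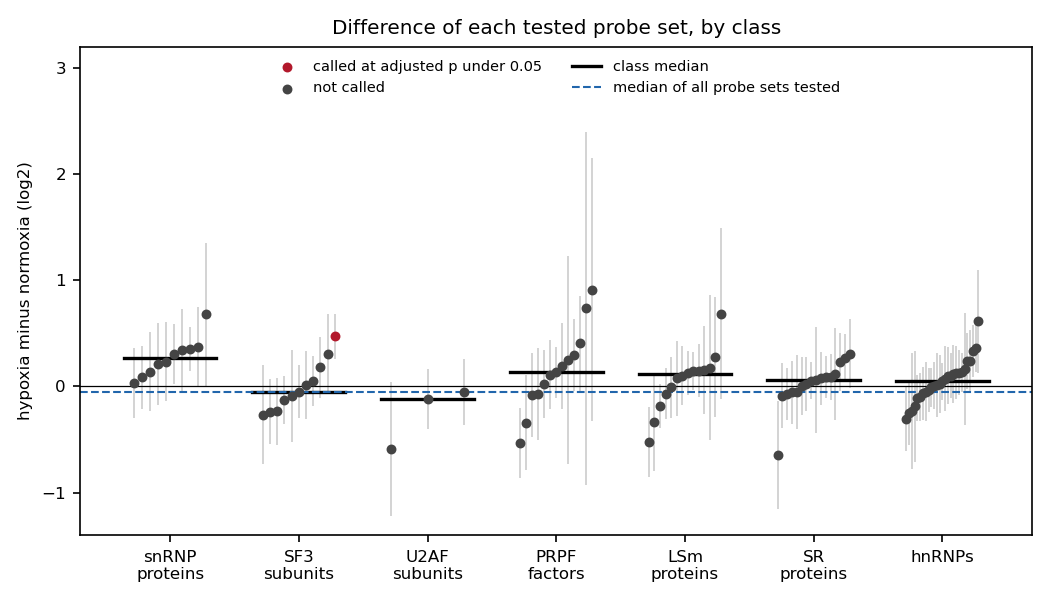
Difference between hypoxia and normoxia (log2, y axis) of each of the 94 tested probe sets, sorted within each class along the x axis, with the 95% interval as a grey line and the class median as a black bar. The called probe set of sf3b6 at 0.47 is red, and the snRNP protein median of 0.27 stands highest among the classes.

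All 10 tested probe sets for snRNP proteins had a difference above 0, from 0.03 to 0.68. In 9 of the 10 the highest value was that of hypoxia 3. The small Sm ring protein gene snrpf had 8.29, 8.21 and 8.36 in hypoxia 1/4, 2 and 3, against 7.91, 7.94 and 7.94 in normoxia 1, 2 and 3/4 (log2 intensity). Every hypoxia sample of snrpf was above every normoxia sample, and the difference was 0.35 ± 0.09 (SE, n = 3, adjusted p = 0.0817 from limma, not called). It was called with the 8 samples as labelled, in a fit that called 12.8% of all probe sets tested. The Sm gene snrpd3 had the largest difference of the class, 0.68 ± 0.28 (SE, n = 3, adjusted p = 0.231 from limma), with 6.66, 6.08 and 7.19 in hypoxia against 6.21, 5.86 and 5.82 in normoxia. Hypoxia 2 lay among the normoxia values of snrpd3, so its groups overlapped. The related gene snrpd3l had 7.45, 7.04 and 7.61 in hypoxia against 6.97, 6.999 and 7.11 in normoxia, a difference of 0.34.

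The other Sm ring genes gave smaller differences with overlapping groups. The gene snrpd1 had 7.97, 7.71 and 8.28 in hypoxia, against 7.70, 7.72 and 7.84 in normoxia, a difference of 0.24. The genes snrpb (0.14), snrpe (0.09) and snrpg (0.03) had their lowest value in hypoxia 2, and under median scaling they were at -0.07, -0.10 and -0.13. The probe set of snrpd2 was at or below 0 intensity on all 10 arrays and gives no level. Among genes particular to 1 snRNP, snrpc of the U1 particle had 7.47, 7.06 and 7.59 in hypoxia against 7.09, 7.02 and 6.89 in normoxia, a difference of 0.37 (adjusted p = 0.240 from limma). The U1 gene snrpa had 7.10, 7.02 and 7.22 in hypoxia against 6.80, 6.93 and 6.70 in normoxia, so its groups did not overlap, with a difference of 0.31 (adjusted p = 0.205 from limma). The U2 gene snrpb2 had 6.41, 6.27 and 6.80 in hypoxia against 6.24, 6.27 and 6.34 in normoxia, a difference of 0.21.

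Hypoxia samples differed among themselves in this class. With each probe set centred on its mean over the 6 samples, the snRNP median was 0.16, -0.16 and 0.37 in hypoxia 1/4, 2 and 3, against -0.14, -0.15 and -0.11 in normoxia 1, 2 and 3/4. The pooled SD of this median between samples of a group was 0.19, against 0.06 for SR proteins and 0.03 for hnRNPs. The class median difference was 0.15 without hypoxia 3 and 0.36 without hypoxia 2, and by run it was 0.11, 0.35 and 0.03. Without scaling it was 0.22 and with median scaling 0.15, with 8 and 7 of the 10 above 0. The cell cycle list of 11 tested genes had medians of 0.33, -0.42 and 0.17 in hypoxia against -0.19, -0.13 and -0.02 in normoxia, and hypoxia 2 was the lowest sample in both sets. Of that list 1 gene was called, the division kinesin gene kif20a (2.56), and the summed intensity of the list's 12 genes on the array was 3306 to 3678 in hypoxia against 1177 to 1234 in normoxia. Most of that gap is kif20a alone. Without it the other 11 genes summed to 1123, 623 and 1496 in hypoxia 1/4, 2 and 3, against 773, 749 and 848 in normoxia 1, 2 and 3/4, so hypoxia 2 was below every normoxia sample. The part of dividing cells in the snRNP values was not tested. In bulk tissue a change in the number of cells of a type and a change in RNA per cell cannot be told apart.

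**Figure D2:**
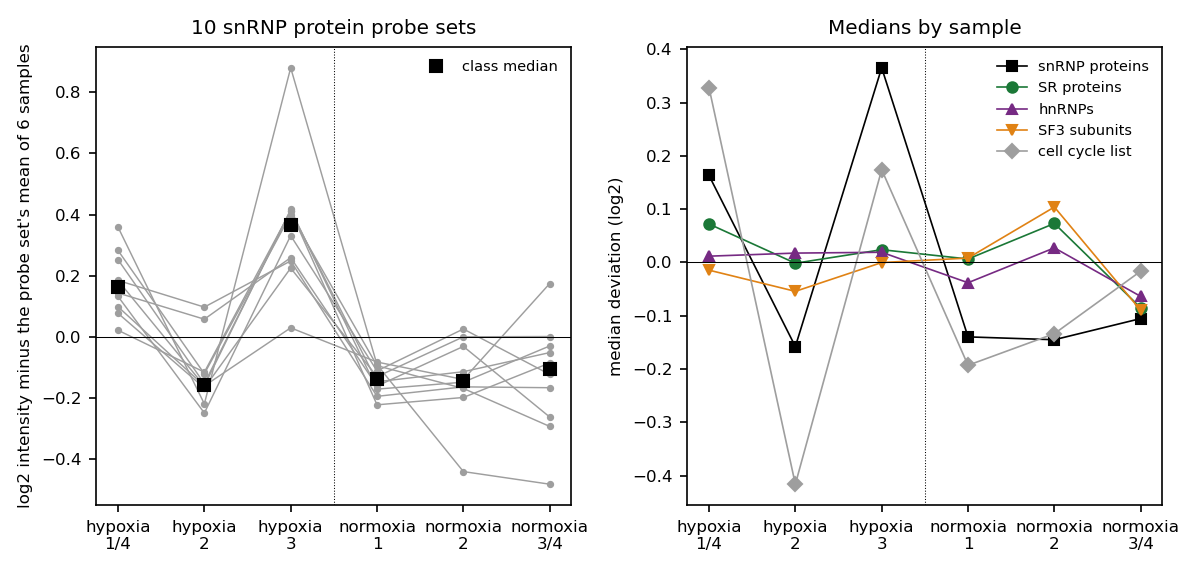
Left, log2 intensity of each of 10 snRNP protein probe sets minus its mean over 6 samples (y axis) by sample (x axis), each line 1 probe set, with the class median as black squares. Right, the median deviation of 4 classes and of the cell cycle list by sample. The snRNP median is highest in hypoxia 3 at 0.37 and lowest in hypoxia 2 at -0.16, and lines join values of 1 set without implying an order of samples.

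The SF3A and SF3B complexes hold the U2 particle at the branch point. Their 11 tested probe sets were split, with 5 above 0 and 6 below and a median of -0.05 (0.01 under cyclic loess). On the array scale the called gene sf3b6 had normalized intensities of 353 to 382 on the 5 hypoxia arrays, against 242 to 280 on the 5 normoxia arrays. In log2 units it had 8.55, 8.52 and 8.47 in hypoxia 1/4, 2 and 3, against 8.13, 8.05 and 7.94 in normoxia 1, 2 and 3/4. Its groups did not overlap, and the difference was 0.47 ± 0.09 (SE, n = 3, 95% interval 0.26 to 0.69, adjusted p = 0.0417 from limma). By run the difference of sf3b6 was 0.44, 0.57 and 0.46. Without any 1 of the 6 counted samples it was 0.42 to 0.52 and no longer called (adjusted p = 0.0901 to 0.115 from limma). Those fits called 1 to 204 of all 10851 probe sets. The call was also lost without scaling (0.34, adjusted p = 0.523 from limma), with median scaling (0.26, adjusted p = 0.243 from limma) and with no intensity trend in the fit (adjusted p = 0.0900 from limma). Of all probe sets tested, 102, 789 and 2 were called there. With the 8 samples as labelled the adjusted p from limma was 0.00285. That fit treats the near-identical arrays as separate samples, and it called 12.8% of all probe sets tested.

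The remaining SF3 subunits were not called. The gene sf3b1, the large scaffold subunit that sf3b6 binds, had 9.95, 10.00 and 9.78 in hypoxia against 9.84, 10.02 and 9.72 in normoxia at one probe set. These overlap, with a difference of 0.05 and an interval of -0.19 to 0.29, and the other probe set gave 0.18. Under median scaling these were -0.22 and -0.03. The subunit gene sf3a2 had 7.83, 7.60 and 8.18 in hypoxia against 7.58, 7.48 and 7.63 in normoxia, a difference of 0.31 (adjusted p = 0.322 from limma), and its other, dimmer probe set gave -0.09. Below 0 lay sf3b5 at -0.27, sf3b2 at -0.24 and sf3b4, whose product contacts RNA near the branch point, at -0.24. For sf3b4 all hypoxia samples (6.05, 5.93 and 5.89) were below all normoxia samples (6.08, 6.35 and 6.14), though the nearest samples lay close. The subunit gene sf3a3 also had groups that did not overlap, at 7.44, 7.40 and 7.33 in hypoxia against 7.57, 7.52 and 7.48 in normoxia, a difference of -0.13.

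U2AF binds the end of the intron, its large subunit the pyrimidine tract and its small subunit the AG that follows. The small subunit gene u2af1 had 5.38, 5.90 and 4.88 in hypoxia 1/4, 2 and 3, against 6.12, 5.81 and 5.996 in normoxia 1, 2 and 3/4. Hypoxia 2 was above normoxia 2, and the difference was -0.59 ± 0.27 (SE, n = 3, adjusted p = 0.266 from limma). Its interval, -1.22 to 0.05, is wide. The large subunit gene u2af2b had -0.12 and -0.05 at its 2 probe sets, and neither was called.

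PRPF factors are grouped here by gene symbol, and not all of them belong to the U4, U5 and U6 particles. Their 13 tested probe sets had a median of 0.13 with 9 above 0. The median was 0.016 with median scaling and 0.012 with dim values raised to the background bound, with 7 above 0 in both, and -0.06 in run 3. The gene prpf38b, related to a factor needed to activate the spliceosome, had 6.15, 6.35 and 6.33 in hypoxia against 6.67, 7.002 and 6.75 in normoxia. Its hypoxia samples were all below its normoxia samples, and the difference was -0.53 ± 0.14 (SE, n = 3, adjusted p = 0.0912 from limma, not called). Its relative prpf38a had 6.30, 6.51 and 6.18 in hypoxia against 5.94, 6.18 and 5.99 in normoxia, a difference of 0.29 (adjusted p = 0.299 from limma). The U4/U6 gene prpf4 had 6.22, 6.05 and 6.66 in hypoxia against 6.05, 5.79 and 5.88 in normoxia, with groups that meet without overlapping and a difference of 0.41 (adjusted p = 0.273 from limma). The U1-associated factor gene prpf39 had 6.93, 7.55 and 6.96 in hypoxia against 7.33, 7.56 and 7.57 in normoxia, a difference of -0.34 with overlap. The gene prpf8, the central scaffold of the spliceosome, had 8.57, 8.37 and 8.64 in hypoxia against 8.34, 8.43 and 8.41 in normoxia at its bright probe set, a difference of 0.13 that turned negative under median scaling (-0.08).

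LSm proteins form the ring on U6 RNA, LSm2 to LSm8, and a cytoplasmic ring with LSm1 that takes part in mRNA decay. Other family members have separate roles. The 14 tested probe sets had a median of 0.11 with 9 above 0, and a median of -0.08 under median scaling. The median of all probe sets tested was -0.14 under that scaling. Of the genes with probe sets above 0, only lsm8 is of the U6 ring. The others were lsm1, lsm12b, lsm14aa, lsm14ab and lsm14b. The ring genes lsm4, lsm6 and lsm7 lay below 0, at -0.01, -0.07 and -0.19, and none was called. The gene lsm12a had the lowest difference of the class, with 5.71, 5.76 and 5.92 in hypoxia against 6.26, 6.50 and 6.21 in normoxia. All hypoxia samples of lsm12a were below all normoxia samples, and the difference was -0.52 ± 0.14 (SE, n = 3, adjusted p = 0.0974 from limma, not called). Its duplicate lsm12b had 8.76, 8.85 and 8.79 in hypoxia against 8.69, 8.63 and 8.64 in normoxia, a difference of 0.15, which was -0.08 under median scaling. Of the U6 ring, lsm7 had 8.64, 8.64 and 8.68 in hypoxia against 8.93, 8.70 and 8.88 in normoxia, a difference of -0.19. Another ring gene, lsm8, had 7.58, 7.41 and 7.43 in hypoxia against 7.40, 7.32 and 7.25 in normoxia, a difference of 0.15 (-0.01 under median scaling). The groups of lsm7 did not overlap, and nor did those of lsm8. The gene lsm14b, of a family found in mRNA storage granules, had 5.85, 4.82 and 6.03 in hypoxia against 4.68, 4.80 and 5.15 in normoxia. Its difference of 0.69 was not called (adjusted p = 0.303 from limma), and 3 of its 10 arrays were under the background bound of 27.0 intensity units. The decay ring gene lsm1 had 0.28.

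SR proteins carry a domain rich in arginine and serine and bind exonic enhancers. Of 16 tested probe sets 11 were above 0, and the median was 0.06. With median scaling 4 were above 0 and the median was -0.17, without scaling these were 5 and -0.09, and in run 3 they were 3 and -0.04. In the same settings the median of all probe sets tested was -0.14, -0.07 and -0.06. The gene srsf5a had 10.03, 10.04 and 9.86 in hypoxia against 9.54, 9.81 and 9.78 in normoxia. Its groups did not overlap. The difference was 0.27 ± 0.10 (SE, n = 3, adjusted p = 0.180 from limma, not called), and it was 0.07 without scaling and -0.0024 with median scaling. The gene srsf7a had 8.57, 8.41 and 8.66 in hypoxia against 8.41, 8.41 and 8.14 in normoxia, a difference of 0.23 that was 0.03 under median scaling. The founding SR protein gene srsf1a had 8.09, 7.88 and 7.85 in hypoxia against 8.02, 8.05 and 7.97 in normoxia, a difference of -0.07 with an interval of -0.32 to 0.17. The gene srsf2a had 9.19, 9.05 and 9.08 in hypoxia against 9.01, 9.28 and 8.95 in normoxia, a difference of 0.02 (-0.20 under median scaling) with an interval of -0.23 to 0.28. Both genes had overlapping groups.

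hnRNPs were the largest class, with 27 of 28 probe sets tested, 17 above 0 and 10 below. With median scaling 6 of the 27 were above 0 and without scaling 10, where the median of all probe sets was -0.14 and -0.07. In 5 all hypoxia samples were above all normoxia samples and in 2 all were below, against 9.94% and 17.3% of all probe sets tested, so the total is near the background. The gene hnrnpabb, of the A/B type, had 8.87, 8.75 and 9.04 in hypoxia 1/4, 2 and 3, against 8.53, 8.53 and 8.50 in normoxia 1, 2 and 3/4. The normoxia samples of hnrnpabb were close together, and all hypoxia samples lay above them. The difference was 0.37 ± 0.10 (SE, n = 3, adjusted p = 0.0936 from limma, not called). The gene hnrnpk, which encodes a protein that binds C-rich RNA, had 8.56, 8.44 and 8.56 in hypoxia against 8.20, 8.31 and 8.03 in normoxia, a difference of 0.34 (adjusted p = 0.132 from limma). The gene hnrnpc, whose product binds U-rich tracts in introns, had the largest difference of the class, 0.61 ± 0.21 (SE, n = 3, adjusted p = 0.157 from limma). Its values were 7.31, 6.90 and 7.68 in hypoxia against 6.81, 6.54 and 6.70 in normoxia, with hypoxia 3 the highest and hypoxia 2 the lowest of the hypoxia samples, the order seen in the snRNP median.

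The other hnRNPs with groups that did not overlap had smaller differences. These were hnrnpr at 0.24, hnrnpl2 at 0.13 (-0.06 under median scaling), one probe set of hnrnpd, whose product binds AU-rich RNA, at -0.25, and hnrnpl, whose product binds CA repeats, at -0.10. One probe set of hnrnpa0a had 8.62, 8.28 and 8.48 in hypoxia against 8.92, 8.58 and 8.79 in normoxia, a difference of -0.31 (adjusted p = 0.235 from limma). Under median scaling it was -0.52 and called (adjusted p = 0.0491 from limma), and it was then the 1 member called, against 7.27% of all probe sets. The gene hnrnpa0l, the brightest member, had 10.72, 10.69 and 10.69 in hypoxia against 10.70, 10.74 and 10.51 in normoxia. Its difference of 0.05 had an interval of -0.12 to 0.23 and was -0.20 under median scaling.

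With the 8 biological samples as labelled, 7 members were called, against 12.8% of all probe sets tested. These were sf3b6 (0.50), hnrnpc (0.61), hnrnpk (0.38), hnrnpabb (0.37) and snrpf, higher in hypoxia, and prpf38b (-0.55) and lsm12a (-0.52), lower in hypoxia. That fit treats the near-identical arrays as separate samples. With all 10 arrays and the counted sample as a random block, 5 members were called, against 9.34% of all probe sets tested. These were sf3b6, hnrnpabb, hnrnpk and snrpf, higher, and prpf38b, lower. With the replicate number as a block in the fit of the 8 samples, 5 were called, against 9.79% of all probe sets. With the run as a further block in the fit of the 10 arrays, 4 were called, against 8.02%. The percentages of members called in the first pair of these fits, 7.45 and 5.32, were below those of all probe sets.

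Other settings of the 3 against 3 fit moved the count of members called between 0 and 2. It was 0 without scaling (0.94% of all probe sets) and 0 with no intensity trend (0.0184%), where 6 and 9 members had an unadjusted p under 0.05 in limma. It was 1, sf3b6, under cyclic loess (3.4%), with no filter on low values (1.1%), with the lowest 50% left out (6.45%) and with 16 added before log2 (4.02%). It was 2, sf3b6 and snrpf, when dim values were raised to the background bound (3.42%).

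**Figure D3:**
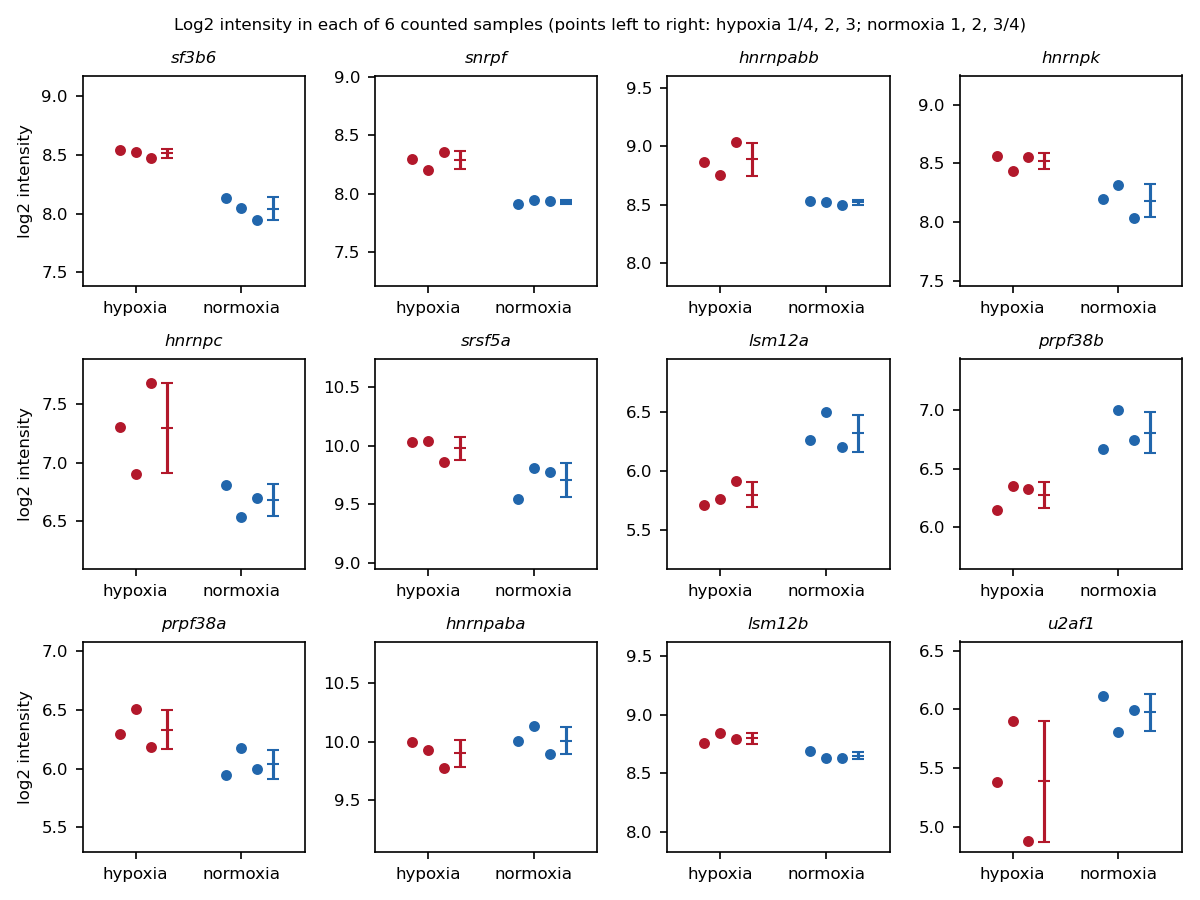
Log2 intensity (y axis) of 12 members in the 3 hypoxia samples (red) and the 3 normoxia samples (blue), with mean and SD beside the points. All panels span the same range of 1.8 log2, and sf3b6, snrpf, hnrnpabb, hnrnpk, hnrnpc, srsf5a, prpf38a and lsm12b sit higher in hypoxia (srsf5a and lsm12b at or below 0 under median scaling), lsm12a and prpf38b lower, and hnrnpaba and u2af1 overlap.

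Probe sets of the same gene give a further reading of each difference, although they share the RNA. Of 14 genes with more than 1 tested probe set, 7 had differences of the same sign at all of them. The differences of lsm12b were 0.10 and 0.15. The gene lsm12a had -0.52 and -0.34, and hnrnpa0a had -0.31, -0.19 and -0.07. The widest spreads went with dim probe sets. For prpf8 the bright probe set gave 0.13 and another, above background on 1 array of each group, gave 0.91. For srsf6a the differences were -0.65, 0.00 and 0.12, and the first came from a probe set under the bound on 3 of 5 hypoxia arrays. For prpf3 they were -0.07 and 0.74, the second with 2.63 in normoxia 3/4 against 5.25 and 5.32 in the other normoxia samples. For sf3a2 they were 0.31 and -0.09, the second from a probe set under the bound on 1 of 5 hypoxia arrays. Brighter probe sets also differed for srsf1b, at -0.09 and 0.31, and for hnrnpd, at 0.01 and -0.25. Of the 7 untested probe sets, for sf3b4, snrpd2, lsm11, lsm12a, prpf8 and hnrnpub, 5 were under the bound on all 10 arrays.

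**Figure D4:**
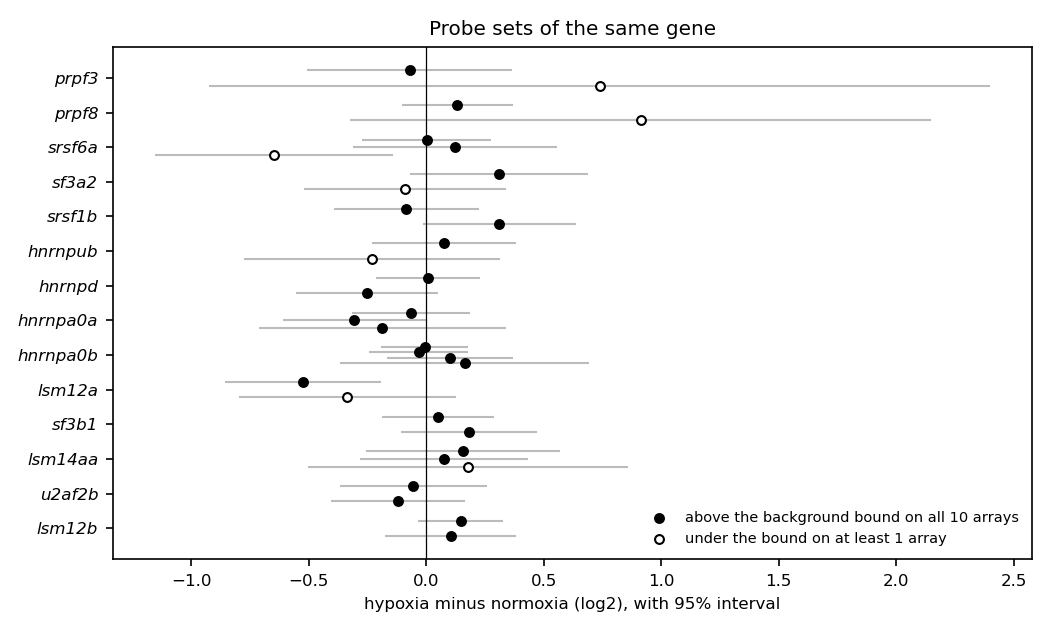
Difference between hypoxia and normoxia (log2, x axis, with 95% interval) at each tested probe set of the 14 genes that have several, one gene per row. Filled points are above the background bound on all 10 arrays and open points are not, and the points at 0.91 (prpf8), 0.74 (prpf3) and -0.65 (srsf6a) are open.

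Zebrafish carry many of these genes as duplicates, so pairs outside the snrp genes whose symbols differ only in a final a or b were taken. This symbol pattern does not show that a pair, prpf38a and prpf38b included, arose as zebrafish duplicates. The 11 pairs with both genes tested were compared within each sample, at the brightest tested probe set of each gene. For 4 of the 11 pairs the log2 ratio did not overlap between groups. Single probe sets did not overlap for 27.2% of all tested, and the share for ratios of other pairs was not computed. Each of these pairs held a gene whose own groups did not overlap. The ratio of prpf38a to prpf38b was 0.83 higher in hypoxia, that of hnrnpaba to hnrnpabb 0.48 lower (-0.48), that of lsm12a to lsm12b 0.67 lower (-0.67) and that of srsf5a to srsf5b 0.21 higher. Each had a two-sided exact permutation p of 0.1, the smallest that 3 against 3 samples allow, and a Benjamini-Hochberg value of 0.275 over the 11 pairs. The gene hnrnpaba itself had 10.00, 9.93 and 9.78 in hypoxia against 10.00, 10.13 and 9.90 in normoxia, a difference of -0.11, and srsf5b had 0.05 (-0.20 under median scaling). The remaining 7 pairs overlapped, with ratio differences from -0.13 to 0.11. With a smallest p of 0.1 none could pass 0.05, and a ratio does not say which gene of a pair differed.

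Of 127 further splicing and RNA-binding genes, such as helicases, exon junction proteins, SR kinases and tissue regulators, 98 were on the array and 94 were tested. In limma 0 were called, against 3.97% of all probe sets tested, and 13 had an unadjusted p under 0.05, against 21.2%. Of the 94, 47 lay above 0 and 47 below, with a median of 0.01. Over all probe sets tested 43.1% lay above 0 and the median was -0.05. The largest difference above 0 was 0.75 for the epithelial splicing regulator gene esrp2 (adjusted p = 0.476 from limma), which had 4.51, 6.26 and 5.47 in hypoxia against 3.82, 4.87 and 5.31 in normoxia. Its groups overlapped. The 5 epithelium markers had 2 called higher, and their summed intensity was 1015, 2353 and 2429 in hypoxia against 831, 1013 and 2061 in normoxia, so hypoxia 2 and hypoxia 3 were the highest samples of both. Of the epithelium markers epcam and elf3 were called, and cdh1 (1.40), krt4 (0.24) and krt5 (-0.73) were not. The groups of krt4 and of krt5 overlapped. The part of epithelial cells was not tested. The largest difference below 0 was -0.67 for ptbp2b, a polypyrimidine tract binding protein gene (adjusted p = 0.111 from limma). It had 5.10, 5.34 and 4.96 in hypoxia against 5.64, 6.10 and 5.69 in normoxia, with no overlap.

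Markers of other cells also differed between the groups whose splicing factors are compared. Red blood cell markers had 6 of 9 called higher, with a summed intensity of 21584 to 26247 in hypoxia against 17828 to 18729 in normoxia. Liver markers had 3 of 11 called higher, at 14203 to 26145 against 1368 to 10330. The summed cardiomyocyte level was 31985 to 33693 in hypoxia against 35314 to 37036 in normoxia, with 2 of 7 called lower. Of 3 tested pancreas markers 1 was called lower, the chymotrypsinogen gene ctrb.1 at -3.16 (adjusted p = 0.0150 from limma), while the trypsinogen gene prss1 was at 1.26 and not called, and their list had a summed intensity of 241 to 675 in hypoxia against 387 to 761 in normoxia. Its marker cel.1 was under the background bound on all arrays. Endothelium had 0 of 3 and leukocyte markers 0 of 5 called in limma (0 at unadjusted p under 0.05 in both). No marker of the red blood cell, liver, cardiomyocyte, endothelium and leukocyte lists was under the background bound on all arrays. Their part in the values of sf3b6 and the other members was not tested.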

How the data were processed

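The deposited table holds linear intensity values of 15617 probe sets on each array, some below 0. The sources used here do not give the software or normalization behind them. Per the file headers, the other deposited records give each array's chip type and fluidics, and they place the arrays in 3 hybridization runs. No column of per-sample values was left unused. Gene symbols came from the platform annotation, which pairs 10795 probe sets with 1 symbol, 135 with several and 4572 with none.

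Values were quantile normalized, 1 was added, values under 1 were set to 1, and log2 was taken. The 115 control probe sets and the lowest 30% by mean (under 4.02) were left out, which left 10851. Arrays of a group that differed by no more than the less alike technical pair were averaged, by the SD of log2 differences over 2247 bright probe sets. Differences were tested with limma 3.58.1 (intensity trend, two-sided, Benjamini-Hochberg adjustment over all 10851) in R 4.3.3. The fit was also run on simulated independent samples with larger differences than any member showed. That run does not cover differences of the members' size. Figures used matplotlib 3.10.9 in Python 3.11.15. The background bound, 27.0, is 2 times the background SD of 13.5 estimated from negative values.

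The members and lists were chosen with earlier results of these data known. Named genes were those called, the 2 highest and 2 lowest differences of each class, a panel of sf3b1, u2af1, snrpd1, prpf8, srsf1a, srsf2a, hnrnpa1a (no member probe set) and hnrnpk, the brightest and dimmest member, other probe sets of these genes, and the most positive and most negative difference of the further splicing genes. Other members named, among them those with groups that do not overlap, were chosen after their values were seen. Alternatives covered scaling, filter, added constant, background bound, intensity trend, sample grouping, run and leaving out each sample. No sequences are given.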

Additional observations from a re-analysis of the deposited data

How the results depend on the processing

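All values are hypoxia minus normoxia (log2). Over the alternatives tried for 62 named probe sets, 1175 of 1295 values kept direction and side of the threshold, and 72 changed sign. Many of these probe sets were named for large or non-overlapping differences in these data, and only sf3b6 was called as reported. The share of kept values is therefore in part set by the choice. Median scaling divides the deposited values of each array by its own factor. It and the unscaled values are therefore not separate checks. The cause of the sign changes was not tested. For a gene with several probe sets, the reported difference of the probe set meant stands beside its value. For the deposited values 0 members and 102 probe sets were called, class medians were all members -0.026, SF3 subunits -0.14, LSm proteins -0.0046, U2AF subunits -0.25, SR proteins -0.092 and hnRNPs -0.058, and the sign turned for hnrnpa0l -0.13, hnrnpd -0.098 (reported 0.0074), lsm12b -0.0030 (reported 0.15), prpf8 -0.0013 (reported 0.13), sf3a2 0.012 (reported -0.091), sf3b1 -0.15 (reported 0.050), snrpe -0.029, snrpg -0.057, srsf2a -0.12, srsf5b -0.13 and srsf6a -0.13 (reported 0.0020). Under median scaling 789 probe sets were called, medians were all members -0.10, SF3 subunits -0.21, LSm proteins -0.080, PRPF factors 0.016, U2AF subunits -0.32, SR proteins -0.17 and hnRNPs -0.13, and the sign turned for hnrnpa0l -0.20, hnrnpd -0.17 (reported 0.0074), hnrnpl2 -0.064, lsm12b -0.078 (reported 0.15), lsm8 -0.0096, prpf8 -0.077 (reported 0.13), sf3b1 -0.22 and -0.034 (reported 0.050 and 0.18), snrpb -0.065, snrpe -0.10, snrpg -0.13, srsf2a -0.20, srsf5a -0.0024, srsf5b -0.20 and srsf6a -0.21 (reported 0.0020). Under cyclic loess medians were all members 0.13, LSm proteins 0.18 and hnRNPs 0.087, and u2af2b 0.0080 (reported -0.055) turned. With no filter 171 probe sets were called. When dim values were raised to the background bound, 2 members were called, the PRPF median was 0.012 and prpf8 -0.0044 (reported 0.91) turned. With no intensity trend 0 members and 2 probe sets were called. Same-numbered samples had deviations correlated at 0.18, 0.10, 0.083 and -0.098, and differently numbered samples at -0.15 to 0.15. Hypoxia 4 was counted with hypoxia 1 and normoxia 4 with normoxia 3, so the -0.098 does not match counted samples. The numbers were not taken as pairs in the reported fit. These values do not decide whether samples were paired. The 8 samples as labelled gave 7 members and 1390 probe sets called, and with the replicate number as a block 5 and 1062, and hnrnpd -0.011 (reported 0.0074) turned in both. The 10 arrays with the counted sample as a random block gave 5 and 1013 with a turned sign for srsf6a -0.011 (reported 0.0020), and with the run as a further block 4 and 870 with a turned sign for hnrnpd -0.016 (reported 0.0074) and srsf6a -0.019 (reported 0.0020). Run 1 alone gave 0 members and 0 probe sets called in limma (4 and 1656 at unadjusted p under 0.05), medians of SF3 subunits -0.15, LSm proteins -0.011, SR proteins -0.040 and hnRNPs -0.00091, and a turned sign for hnrnpa0l -0.026, hnrnpd -0.039 (reported 0.0074), prpf3 -0.28 (reported 0.74), srsf2a -0.034, srsf5b -0.051, srsf6a -0.18 (reported 0.0020) and u2af2b 0.12 (reported -0.055). In run 2 alone the normoxia arrays count as 1 sample, so only differences are given. Its medians were all members 0.18, SF3 subunits 0.14, LSm proteins 0.18, PRPF factors 0.23, SR proteins 0.19 and hnRNPs 0.16. The sign turned there for esrp2 -0.19, hnrnpa0a 0.15 and 0.20 (reported -0.19 and -0.065), hnrnpd -0.0017 (reported 0.0074) and prpf3 0.23 (reported -0.072). It also turned for prpf8 -0.14 (reported 0.91), sf3a2 0.14 (reported -0.091), snrpg -0.070 and u2af2b 0.070 (reported -0.12). Run 3, with 1 array per group and no test, had medians of all members -0.031, snRNP proteins 0.029, LSm proteins -0.015, PRPF factors -0.061, U2AF subunits -0.34, SR proteins -0.044 and hnRNPs -0.0099. With 1 probe set per gene the medians were U2AF subunits -0.32 and hnRNPs 0.089. Leaving out each counted sample in turn gave 0 members and 1 to 204 probe sets called, and medians of 0.030 to 0.11 for all members, 0.0078 to 0.095 for hnRNPs, 0.054 to 0.14 for LSm proteins, 0.058 to 0.20 for PRPF factors, -0.10 to 0.018 for SF3 subunits, 0.15 to 0.36 for snRNP proteins, -0.0058 to 0.10 for SR proteins and -0.19 to -0.032 for U2AF subunits. Signs turned in that way for hnrnpa0a (-0.32 to 0.042, reported -0.19), hnrnpa0l (-0.019 to 0.096), hnrnpd (-0.026 to 0.048, reported 0.0074), prpf3 (-0.20 to 0.013, reported -0.072), prpf3 (-0.15 to 1.20, reported 0.74), sf3a2 (-0.18 to 0.011, reported -0.091), sf3b1 (-0.019 to 0.13, reported 0.050), snrpe (-0.0021 to 0.19), snrpg (-0.050 to 0.13), srsf1b (-0.15 to 0.026, reported -0.085), srsf2a (-0.041 to 0.12), srsf6a (-0.044 to 0.28, reported 0.12), srsf6a (-0.082 to 0.095, reported 0.0020) and u2af2b (-0.17 to 0.023, reported -0.055). Without hypoxia 1/4, 88 probe sets were called, srsf2a was at -0.018 and srsf6a at -0.0072. Without normoxia 3/4, 83 were called. Without normoxia 1 the hnRNP median was 0.039 and srsf2a -0.010, and without normoxia 2 snrpg was at -0.028. The members' median was above that of all probe sets tested in 22 of 22 settings, and the snRNP median was above 0 in 22 of 22. These settings include the reported fit and reuse the same 10 arrays, so they are not independent checks. Dropping the intensity trend or adding the replicate block cannot change a median. With 3 counted samples per group, and dim probe sets near the background bound of 27.0, small differences are not detectable.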
